A study of Homo sapiens with 10 samples.

Results

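Tissue inhibitors of metalloproteinases (TIMPs) and matrix metalloproteinases (MMPs) were followed in T24, a human bladder cancer cell line sensitive to cisplatin, and in T24R2, a cisplatin-resistant line derived from it by serial exposure to the drug. The 9 genes were TIMP1, TIMP2, TIMP3, MMP1, MMP2, MMP3, MMP7, MMP9 and MMP14, out of 61533 genes counted. They were selected on measured differences between these same libraries, so their levels and fold changes are given as a description, without p-values. RNA-seq was done on 5 libraries of each line, collected on day 3 of culture in RPMI medium with serum and antibiotics. The methods of the study state that T24R2 is kept in cisplatin, whereas the sample labels name the same drug-free medium for both lines, so the effect of the line and that of the drug cannot be told apart. T24R2 is 1 derived line, and the libraries are not described as separate cultures, so the p-values below measure the spread between these libraries, which may be technical.

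TIMPs are small secreted proteins that block the active site of MMPs, zinc-dependent enzymes that cut collagens and other components of the extracellular matrix. MMPs are made as inactive precursors and are controlled by transcription, by cleavage of the propeptide and by TIMPs. In bladder cancer, as in other carcinomas, these enzymes are studied for their part in invasion and in the release of growth factors from the matrix.

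Promoter sequences from RefSeq (GRCh38.p14) were matched for 4 of the 9 genes, and these sequences are shown. Each is the 250 bases before the RefSeq start of the gene, written in the direction of the gene, and that start may differ from the start in the annotation used for counting. Capitals mark matches to a GC box (GGGCGG or CCGCCC), an AP-1 motif (TGANTCA) or a TATA motif (TATAAA or TTTATA). The windows are chrX:47582186-47582435 (plus strand) for TIMP1, chr22:32801455-32801704 (plus strand) for TIMP3, chr14:22836335-22836584 (plus strand) for MMP14 and chr11:102530748-102530997 (minus strand) for MMP7.
TIMP1: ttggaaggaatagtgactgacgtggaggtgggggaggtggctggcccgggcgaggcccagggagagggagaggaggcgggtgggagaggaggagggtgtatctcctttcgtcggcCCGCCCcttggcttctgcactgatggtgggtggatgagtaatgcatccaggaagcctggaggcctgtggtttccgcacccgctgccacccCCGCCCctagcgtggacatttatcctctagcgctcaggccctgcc
TIMP3: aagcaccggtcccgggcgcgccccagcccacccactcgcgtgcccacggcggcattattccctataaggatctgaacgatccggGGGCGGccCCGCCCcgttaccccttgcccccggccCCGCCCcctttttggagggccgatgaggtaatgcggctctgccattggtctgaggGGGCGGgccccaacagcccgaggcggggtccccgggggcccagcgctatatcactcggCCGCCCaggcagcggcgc
MMP14: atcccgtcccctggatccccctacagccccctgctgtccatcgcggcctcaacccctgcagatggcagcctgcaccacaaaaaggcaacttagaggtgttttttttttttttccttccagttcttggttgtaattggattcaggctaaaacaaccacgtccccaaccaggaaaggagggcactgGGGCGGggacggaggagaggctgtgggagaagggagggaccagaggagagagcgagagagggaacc
MMP7: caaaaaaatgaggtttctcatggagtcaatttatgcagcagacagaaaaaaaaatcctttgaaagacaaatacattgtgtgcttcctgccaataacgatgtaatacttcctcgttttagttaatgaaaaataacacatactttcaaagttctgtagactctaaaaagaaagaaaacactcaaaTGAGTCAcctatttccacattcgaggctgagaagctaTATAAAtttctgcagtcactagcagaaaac

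The window of TIMP3 held 5 GC boxes and 26 CpG dinucleotides, with a GC content of 72.4%. The windows of TIMP1 and MMP14 held 2 and 1 GC boxes, 12 and 7 CpG dinucleotides, and GC contents of 64.8% and 56.8%. The window of MMP7, a gene with almost no reads in either line, differed from these in base composition, with 3 CpG dinucleotides and a GC content of 33.6%. It held the AP-1 motif 67 bases and the TATA motif 30 bases before the start, and the other windows held neither. Among 35116 RefSeq promoters of the same length, 42.6% held a GC box, 6.57% an AP-1 motif and 10.7% a TATA motif on either strand, and the median was 11 CpG dinucleotides and a GC content of 58.0%. The motifs do not overlap one another, and a match is a match of letters, not a site shown to be bound. TIMP2, MMP1, MMP2, MMP3 and MMP9 were not matched.

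Total counts were 9257843 to 10840954 per library. Levels are given as CPM (counts scaled to library size) after scaling by the trimmed mean of M-values (TMM), with the SD over 5 libraries. A gene was called when the adjusted p of edgeR's quasi-likelihood test was under 0.05 and the absolute log2 fold change (T24R2 over T24) was over 0.5. When library size alone was used for scaling, the median log2 fold change across the genes moved from 0.01 to 0.18, and the split of called genes moved from 4027 higher and 4282 lower to 5206 higher and 3431 lower.

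TIMP3, an inhibitor that binds to the matrix and also blocks several ADAM and ADAMTS proteases, was the TIMP with the highest level per length in T24 and had no read in T24R2. Its gene is ENSG00000100234.12, at chr22:32801705-32863041 in hg38 on the plus strand. TIMP3 had 7006, 5800, 5736, 7094 and 5604 counts in T24 replicates 1 to 5, and 0 counts in each of the 5 T24R2 libraries. The lines did not overlap, and T24 replicates 1 and 4 were the highest. In CPM, TIMP3 was at 727.2, 610.2, 655.4, 763.0 and 605.3 in T24, a mean of 672.2 ± 70.49 (SD, n = 5). Set against a floor of 3 counts per library, TIMP3 was at least 2279-fold lower in T24R2. In bulk RNA, fewer cells that carry a transcript and less of it per cell cannot be told apart. No other gene has exons on the opposite strand of the TIMP3 exons.

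TIMP2, which inhibits MMPs and also tethers the precursor of MMP2 to MMP14 at the cell surface, was lower in T24R2 but was read in every library. TIMP2 (ENSG00000035862.12, chr17:78852977-78925387, minus strand) was at 254.9, 240.8, 228.2, 247.2 and 229.0 CPM in T24 and at 87.62, 87.38, 100.8, 87.23 and 90.56 CPM in T24R2. The lines did not overlap, and T24R2 replicate 3 was the highest of its line. The means were 240.0 ± 11.57 and 90.71 ± 5.788 CPM (SD, n = 5 libraries of each line), and the log2 fold change was -1.40 (SE 0.05). The exons of TIMP2 share 6.52% of their bases with ENSG00000267601 on the opposite strand, which itself had 62.36 CPM in T24 and 22.41 CPM in T24R2. The kit is not described as strand specific, so reads from such stretches cannot be told apart. With all counts of that gene taken off, the log2 ratio of TIMP2 was -1.38.

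TIMP1, a secreted inhibitor of most MMPs that acts weakly on MMP14, was at a like level in both lines. TIMP1 (ENSG00000102265.12, chrX:47582408-47586789, plus strand) was at 177.8, 166.8, 161.2, 173.7 and 156.4 CPM in T24 and at 160.6, 148.6, 166.3, 154.9 and 158.2 CPM in T24R2. The libraries of the lines overlapped. The means were 167.2 ± 8.762 and 157.7 ± 6.596 CPM, with a log2 fold change of -0.08 (SE 0.05), or 0.08 without scaling beyond library size. T24 replicates 1 and 4 were the highest of their line for all 3 TIMPs and for MMP1, though not for MMP14.

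**Figure D1:**
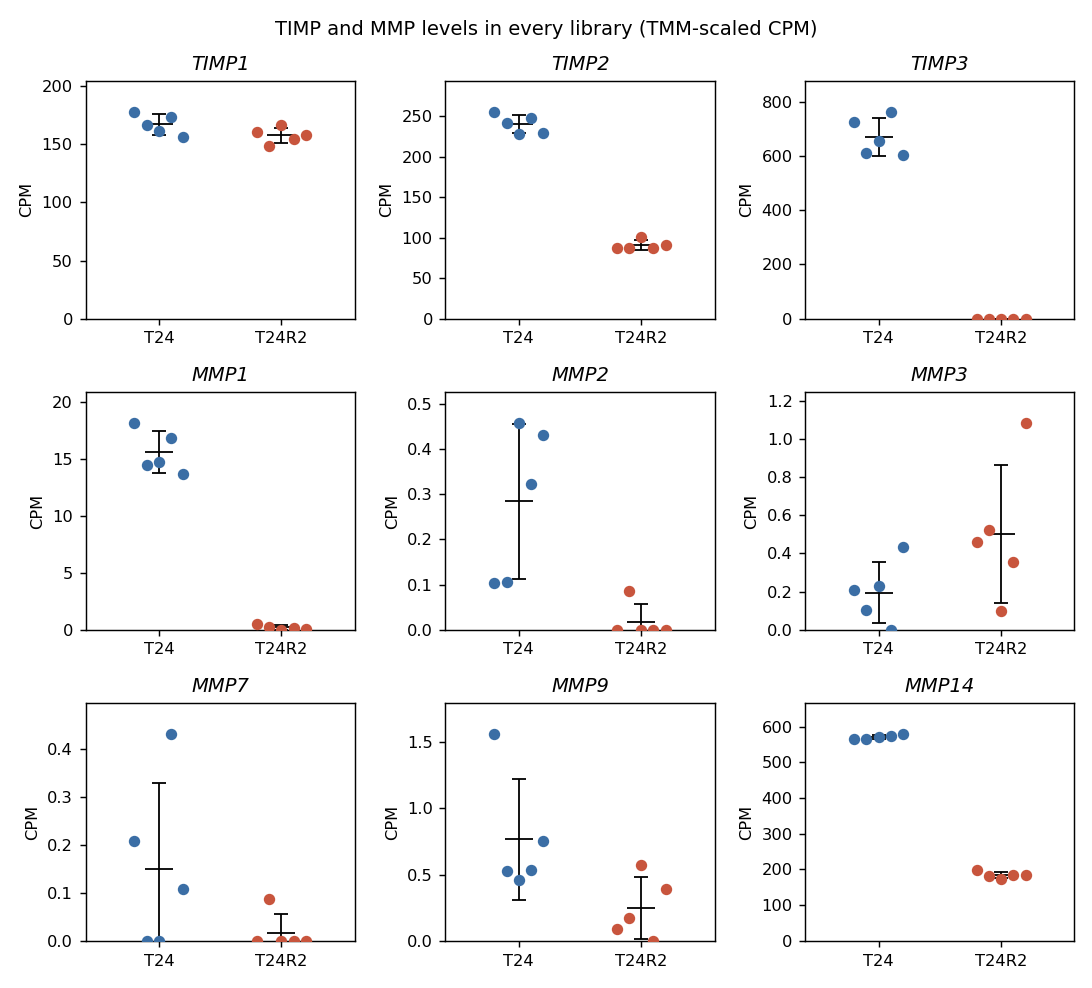
Level of each of the 9 genes in every library, in TMM-scaled CPM on a linear axis from 0 with a separate scale per gene. Points are libraries in replicate order from left to right, and bars are the mean ± SD of 5 libraries. TIMP2, TIMP3, MMP1 and MMP14 have no overlap between the lines, TIMP1 overlaps, and MMP2, MMP3, MMP7 and MMP9 lie below 2 CPM in every library.

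MMP14, a membrane-anchored collagenase that also activates the precursor of MMP2, was the MMP with the highest level in both lines and was lower in T24R2. MMP14 (ENSG00000157227.14, chr14:22836560-22849041, plus strand) was at 566.1, 565.8, 569.6, 572.7 and 578.3 CPM in T24 and at 199.5, 181.5, 174.0, 184.2 and 183.2 CPM in T24R2. The T24 libraries lay close together, and the lines did not overlap. The means were 570.5 ± 5.196 and 184.5 ± 9.288 CPM, and the log2 fold change was -1.63 (SE 0.04). MMP14 in T24R2 was thus at 32.34% of its T24 level, and TIMP2 at 37.8% of its own.

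MMP1, the interstitial collagenase, was measured at a low level in T24 and at a few reads in T24R2. MMP1 (ENSG00000196611.6, chr11:102789401-102798160, minus strand) had 175, 138, 129, 157 and 127 counts in T24 and 6, 3, 0, 2 and 1 counts in T24R2. Of the 12 counts of T24R2, 6 came from replicate 1. In CPM, MMP1 was at 18.16, 14.52, 14.74, 16.89 and 13.72 in T24 and at 0.5505, 0.2601, 0, 0.1782 and 0.09833 in T24R2. The lines did not overlap, and the log2 fold change was -6.06 (SE 0.27). It was -6.69 without T24R2 replicate 1. The exons of MMP1 share 8.14% of their bases with WTAPP1, a pseudogene on the opposite strand, which had 25 to 57 counts in T24 and 0 to 5 in T24R2. With all WTAPP1 counts taken off, the log2 ratio of MMP1 was -7.36, which rests on the 12 counts of MMP1 and 8 counts of WTAPP1 in T24R2.

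MMP2 and MMP9, the gelatinases, MMP3, a stromelysin that activates other MMPs, and MMP7, a small MMP of epithelial cells, were too low to be tested. MMP2 (chr16:55389700-55506691) had 1, 1, 4, 3 and 4 counts in T24 and 0, 1, 0, 0 and 0 in T24R2. MMP7 (chr11:102520508-102530750) had 2, 0, 0, 4 and 1 counts in T24 and 0, 1, 0, 0 and 0 in T24R2. The lowest T24 and the highest T24R2 libraries had 1 count each for MMP2, and the lines overlapped for MMP7. MMP9 (chr20:46008908-46016561) had 15, 5, 4, 5 and 7 counts in T24 and 1, 2, 6, 0 and 4 in T24R2, and 18.4% of its exon bases are shared with SLC12A5-AS1 on the opposite strand, which had 0 to 11 counts in T24 and 0 in T24R2. MMP3 (chr11:102835801-102843609) had 2, 1, 2, 0 and 4 counts in T24 and 5, 6, 1, 4 and 11 in T24R2. Among these 4 genes it was the one with more reads in T24R2, 27 against 9 over the 5 libraries, with overlap between the lines. Without the filter on low counts, MMP2 and MMP9 were called lower in T24R2 (log2 fold changes of -3.27 and -1.62), and MMP3 and MMP7 were not called.

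Of the 9 genes, 5 passed the filter on low counts (TIMP1, TIMP2, TIMP3, MMP1 and MMP14), and 4 of these were called lower in T24R2 and 0 higher. In the background of all 16181 genes tested, 51.4% were called, 24.9% higher and 26.5% lower. Of the 5 tested, the 4 called genes were also those without overlap between the lines, against a background of 61.2% of genes tested. Nothing is read from these shares, because the genes were selected on the contrast and because TIMP3 and MMP1 passed the filter through their T24 counts.

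Levels of different genes were compared per length, as FPKM (CPM divided by exon length in kilobases), with overlapping exons of a gene merged. In T24 the order was TIMP3 at 146.2 ± 15.33, MMP14 at 123.4 ± 1.124, TIMP1 at 115.6 ± 6.06, TIMP2 at 42.61 ± 2.054 and MMP1 at 5.699 ± 0.6755 FPKM. MMP14 and TIMP1 overlapped in range, and the other neighbours in this order did not. MMP9, MMP3, MMP7 and MMP2 followed at 0.3282 FPKM or less, with overlapping ranges. In T24R2, TIMP1 came first at 109.1 ± 4.561 FPKM, then MMP14 at 39.9 ± 2.009 and TIMP2 at 16.1 ± 1.027, with no overlap. The other 6 genes were at 0.2711 FPKM or less and overlapped with their neighbours in the order.

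The summed FPKM of the 3 TIMPs was 280.5 to 330.0 in T24 (mean 304.5 ± 22.31) and 118.3 to 132.9 in T24R2 (mean 125.2 ± 5.395). The summed FPKM of the 6 MMPs was 128.0 to 130.8 in T24 (mean 129.7 ± 1.158) and 37.94 to 43.64 in T24R2 (mean 40.37 ± 2.063). Neither pool overlapped between the lines. The make-up of the TIMP pool differed between them: TIMP3 and TIMP1 held 47.95% and 38.03% of it in T24, whereas TIMP1 held 87.14% in T24R2. TIMP2 held 14.02% and 12.86%, and the ranges of its share, 13.3% to 14.7% and 12.29% to 13.46%, overlapped. In the MMP pool, MMP14 held 95.18% in T24 and 98.85% in T24R2.

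TIMPs made up 70.07% ± 1.482 of the summed FPKM of the 9 genes in T24 and 75.6% ± 1.322 in T24R2, with ranges of 68.2% to 71.65% and 74.37% to 77.8%. The order of the lines turned when counts were not divided by length, with 64.68% ± 1.814 of the summed CPM in T24 and 57.25% ± 1.947 in T24R2. With all other MMPs and TIMP4 included, the share of the summed FPKM was 67.36% in T24 and 70.18% in T24R2, and the ranges met at 68.73%. The ratio of MMP14 to TIMP2 in FPKM was 2.902 ± 0.1552 in T24 and 2.489 ± 0.2443 in T24R2, and the libraries overlapped (2.706 to 3.077 and 2.104 to 2.774).

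**Figure D2:**
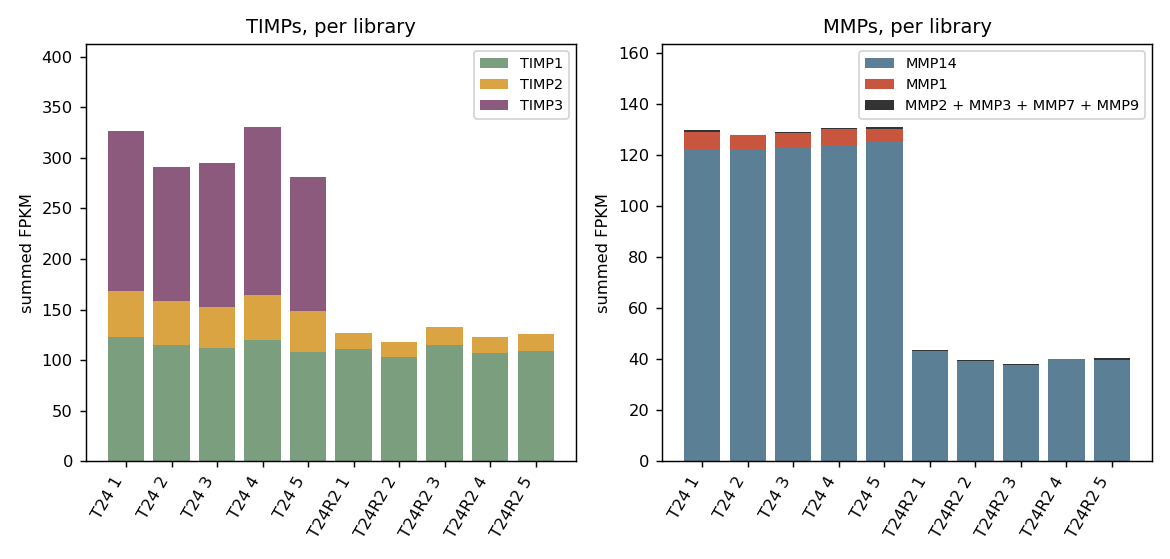
Summed FPKM (CPM divided by exon length in kilobases) of the 3 TIMPs, left, and of the 6 MMPs, right, as stacked bars from 0 with 1 bar per library. TIMP3 is the upper segment of the TIMP bars in T24 and is missing from T24R2, where TIMP1 makes up 87.14% of the bar on average, and MMP14 makes up nearly the whole MMP bar in both lines.

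MMP1, MMP3 and MMP7 lie in a cluster of 9 MMP genes on chromosome 11 (chr11:102520508-102955732, 435.2 kb), together with MMP20, MMP27, MMP8, MMP10, MMP12 and MMP13. Of its genes, 3 passed the filter on low counts (MMP1, MMP10 and MMP13), and these had fewer reads in T24R2. All 3 passed through their T24 counts, so nothing is read from their shared direction. MMP3, which did not pass, had more reads in T24R2. MMP20, MMP27, MMP8 and MMP12 had 0 counts in all 10 libraries. MMP10, stromelysin-2, had 56, 54, 28, 78 and 72 counts in T24 and 8, 10, 7, 4 and 3 in T24R2. It fell by 3.36 on the log2 scale (SE 0.30, adjusted p = 6.3e-13 by edgeR). MMP13, collagenase-3, had 66, 40, 44, 56 and 49 counts in T24 and 5, 4, 0, 3 and 0 in T24R2, and fell by 4.56 (SE 0.37, adjusted p = 5.3e-14). The lines overlapped for neither gene. MMP3 and MMP10 are close paralogs, so reads of these genes may be divided between them with less certainty. The summed CPM of the cluster was 23.2 to 31.73 in T24 and 0.7678 to 2.202 in T24R2.

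The tested genes closest to either end of the cluster did not pass the minimum fold change. TMEM123, 50.12 kb to the left, was at 424.7 CPM in T24 and 354.9 CPM in T24R2 (log2 fold change -0.26, adjusted p = 6.7e-07), and DCUN1D5, 94.95 kb to the right, at 56.24 and 64.48 CPM (0.20, adjusted p = 0.0043). TMEM123-DT, a low gene 58.5 kb to the left that was named after its values were seen, fell from 1.861 ± 0.7505 to 0.6957 ± 0.4175 CPM (-1.40, SE 0.37, adjusted p = 0.00081).

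**Figure D3:**
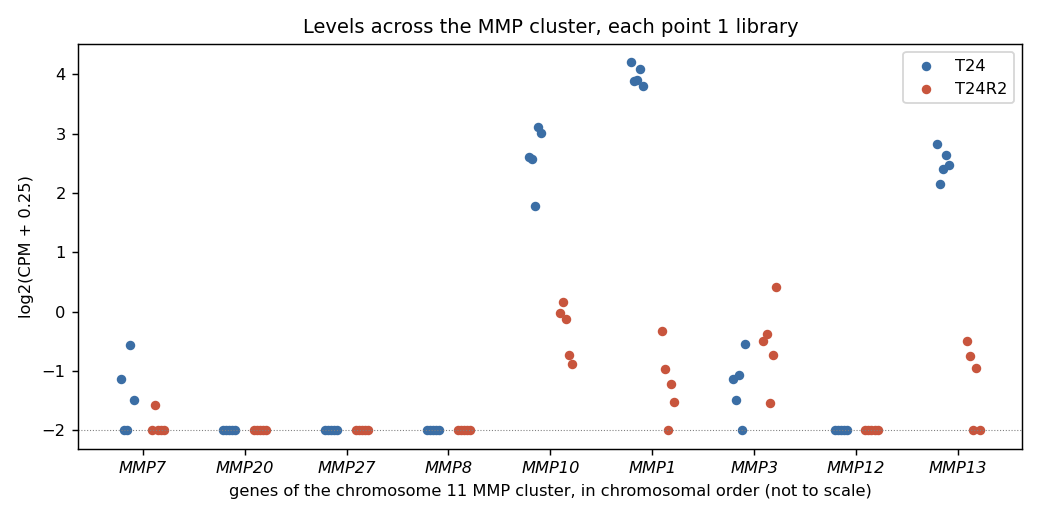
Levels of the 9 genes of the chromosome 11 MMP cluster in chromosomal order, as log2(CPM + 0.25), with 1 point per library and a dotted line at 0 counts. T24 points of MMP10, MMP1 and MMP13 all lie above the T24R2 points, MMP3 and MMP7 overlap, and the other 4 genes lie on the line in every library.

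Of the 4 TIMP genes, 3 lie within synapsin genes on the opposite strand, TIMP1 in SYN1, TIMP3 in SYN3 and TIMP4 in SYN2, and CEP295NL lies within TIMP2. The synapsins, proteins of synaptic vesicles, were near 0 in both lines. SYN3 had 1 to 3 counts in T24 and 0 to 3 in T24R2, SYN1 had 1 to 16 and 1 to 9, and SYN2 had 1 to 9 and 0 to 5. CEP295NL had 0 to 8 counts in T24 and 0 to 3 in T24R2. None of these 4 genes had enough counts to be tested.

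The nearest tested genes around TIMP3 had reads in both lines. FBXO7, a subunit of a ubiquitin ligase and the nearest tested gene on the left at 302.9 kb, was at 107.7 ± 4.192 CPM in T24 and 89.38 ± 6.114 CPM in T24R2 (log2 fold change -0.27, SE 0.05, adjusted p = 1.8e-05, under the minimum fold change). On the right the nearest tested gene was HMGXB4 at 2394 kb (0.34, adjusted p = 1.9e-06, also under the minimum). Within 1000 kb, 7 genes were tested, all on the left, and 3 were called, against 51.4% of all genes tested. Nothing is read from this count. These 3, named after their values were seen, were RTCB, an RNA ligase (-0.60), YWHAH, a 14-3-3 protein (-0.61), and SLC5A4-AS1 (4.88). SLC5A4-AS1 was low, at 0.0432 CPM in T24, below the floor, and 1.622 CPM in T24R2. The tested gene nearest to MMP14 on each side fell, by less than MMP14 itself. MRPL52, a mitochondrial ribosomal protein gene 1.523 kb to the left, fell by 0.58 (SE 0.07, adjusted p = 4.2e-09), and LRP10, a receptor gene 22.7 kb to the right, by 0.56 (SE 0.05, adjusted p = 8.9e-14). The next tested genes, named after their values were seen, were not called: OXA1L on the left (-0.38) and RBM23 on the right (-0.03).

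Outside the 9 genes, 17 other MMPs and TIMP4 were examined, of which 10 could be tested. Of these 10, 6 fell, 3 rose and 1 did not pass (MMP21, log2 fold change -0.41, adjusted p = 0.19), with a median of -0.66 against 0.01 over all genes tested. Over all genes tested, 26.5% were called lower and 24.9% higher. MMP10, MMP11 and MMP13 passed the filter on low counts through their T24 counts, so nothing is read from the count of genes that fell. MMP11, stromelysin-3, fell from 4.288 ± 0.848 to 0.3493 ± 0.2866 CPM (-3.57, SE 0.35, adjusted p = 9.4e-12), along with MMP10 and MMP13 above. The 3 that rose were the membrane-type enzymes MMP16, MMP17 and MMP24, named after their values were seen. MMP17 rose from 2.774 ± 0.8142 to 10.6 ± 2.806 CPM (1.93, SE 0.20, adjusted p = 1.8e-11), MMP16 from 5.625 to 9.677 CPM and MMP24 from 11.65 to 17.49 CPM. MMP24 shares 22.1% of its exon bases with the opposite strand. MMP15, a further membrane-type enzyme, fell from 19.92 to 11.8 CPM (-0.76, adjusted p = 8e-08), as did the membrane-type genes MMP14 and MMP25. MMP19 and MMP25 fell with overlap between the lines, and MMP25 was called in 12 of the 17 alternatives in which it could be tested. MMP19 shares 17.4% and MMP25 30.6% of exon bases with the opposite strand. TIMP4, the remaining TIMP, had 5, 8, 13, 10 and 11 counts in T24 and 0, 1, 1, 0 and 2 in T24R2, without overlap but with too few counts for the test. The list also held 6 genes with 0 counts throughout.

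The ADAM proteases, membrane-bound shedding enzymes that are partly under TIMP3 control, numbered 12, and 7 could be tested. Of these, 4 fell, 0 rose and 3 did not pass both thresholds, with a median of -0.78. Among all genes tested, 26.5% were called lower and 24.9% higher. ADAM8, a sheddase best known in leukocytes, fell from 119.2 ± 2.38 to 3.043 ± 0.5635 CPM (-5.28, SE 0.09, adjusted p = 4e-37). ADAM19 fell from 201.7 to 32.74 CPM (-2.62, SE 0.06, adjusted p = 3e-33) and ADAM9 from 376.2 to 155.2 CPM (-1.28, adjusted p = 2.3e-25). ADAM10 and ADAM17, the general sheddases, did not fall: ADAM10 was at 190.7 ± 10.16 and 267.9 ± 3.938 CPM (0.49, adjusted p = 8.1e-13, just under the minimum fold change), and ADAM17 at 83.07 and 90.04 CPM (0.12, adjusted p = 0.036). ADAM21 did not pass the filter on low counts, with 1 to 2 counts in T24 and 9 to 20 in T24R2, without overlap. It was called higher in the 7 alternatives in which it could be tested.

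The ADAMTS proteases, secreted enzymes that cut proteoglycans and procollagens, numbered 19, and 13 could be tested. Of these, 6 fell, 3 rose and 4 did not pass, with a median of -0.23. Among all genes tested, 26.5% were called lower and 24.9% higher. ADAMTS9 passed the filter on low counts through its T24 counts, and ADAMTS17 through its T24R2 counts. ADAMTS9 and ADAMTS1, which cut versican and aggrecan, fell from 27.03 ± 1.903 to 0.3805 ± 0.3006 CPM (-6.08, SE 0.21, adjusted p = 2.5e-26) and from 254.2 ± 11.31 to 10.71 ± 1.74 CPM (-4.57, SE 0.07, adjusted p = 2.9e-38). ADAMTS17 rose from 0.3847 to 8.643 CPM (4.43, SE 0.31, adjusted p = 4.3e-16). The aggrecanases that TIMP3 is best known to inhibit were low in both lines, with ADAMTS5 at 1.982 and 2.166 CPM (adjusted p = 0.69) and ADAMTS4 at 0 to 4 and 0 to 2 counts.

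Activators, further inhibitors and receptors of MMPs numbered 11, and 7 could be tested, of which 4 fell, 1 rose and 2 did not pass (median -0.90). Among all genes tested, 26.5% were called lower and 24.9% higher. Among inhibitors, RECK, a membrane-anchored protein that blocks MMP14, fell from 19.17 to 9.513 CPM (-1.01, SE 0.11, adjusted p = 2.6e-10). TFPI2, a further inhibitor on the list, went the other way, from 114.5 to 144.8 CPM (0.34, adjusted p = 2.8e-07), under the minimum fold change. BSG, also called EMMPRIN for its induction of MMPs, fell from 814.5 ± 34.73 to 248.9 ± 8.566 CPM (-1.71, SE 0.04, adjusted p = 7.1e-31). LRP1, a receptor that clears MMPs and TIMPs, fell from 209.5 to 112.1 CPM (-0.90, adjusted p = 9.7e-20). The proprotein convertases, which cut the propeptide of MMP14 and its kin, moved apart. PCSK6 rose from 2.058 ± 0.8588 to 24.6 ± 1.738 CPM (3.57, SE 0.16, adjusted p = 1.6e-22), and PCSK7 fell from 147.0 ± 13.18 to 26.78 ± 1.996 CPM (-2.46, adjusted p = 4e-30), with 20.6% of its exon bases shared with the opposite strand. PCSK6 shares 8.73% of its exon bases with the opposite strand, and 1238 bases with other genes on its own strand. FURIN, the convertase most often tied to MMP14, was at 146.6 and 131.5 CPM (-0.16, adjusted p = 0.0027) and did not pass the minimum fold change.

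Transcription factors that bind AP-1, ETS, RUNX and NF-kB motifs of MMP promoters numbered 16, all tested, of which 5 fell, 3 rose and 8 did not pass (median -0.16). Over all genes tested 51.4% were called, 24.9% higher and 26.5% lower, so nothing is read from this count. ELF3, an epithelial ETS factor, fell from 72.1 ± 10.16 to 0.2779 ± 0.0962 CPM (-7.96, SE 0.17, adjusted p = 1.4e-33). It passed the filter on low counts through its T24 counts. FOSL1, an AP-1 subunit, fell from 456.1 ± 30.8 to 183.7 ± 4.286 CPM (-1.31, SE 0.05, adjusted p = 6.6e-26), and ETS1 from 388.9 ± 20.15 to 167.8 ± 8.989 CPM (-1.21, SE 0.05, adjusted p = 1.6e-24). RUNX2, which acts on MMP13 in bone, rose from 19.52 to 44.29 CPM (1.18, adjusted p = 1.5e-13). Other AP-1 subunits went in both directions: JUNB fell from 89.94 to 54.56 CPM (-0.72, adjusted p = 2.8e-13), and FOS rose from 10.86 to 16.16 CPM (0.57, adjusted p = 0.00021) with overlap between the lines. JUN (-0.38) and RELA, a subunit of NF-kB (-0.29), did not pass the minimum fold change. Nor did NFKB1, the other NF-kB subunit listed, which went the other way, from 74.47 to 97.75 CPM (0.39, adjusted p = 5.1e-09).

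**Figure D4:**
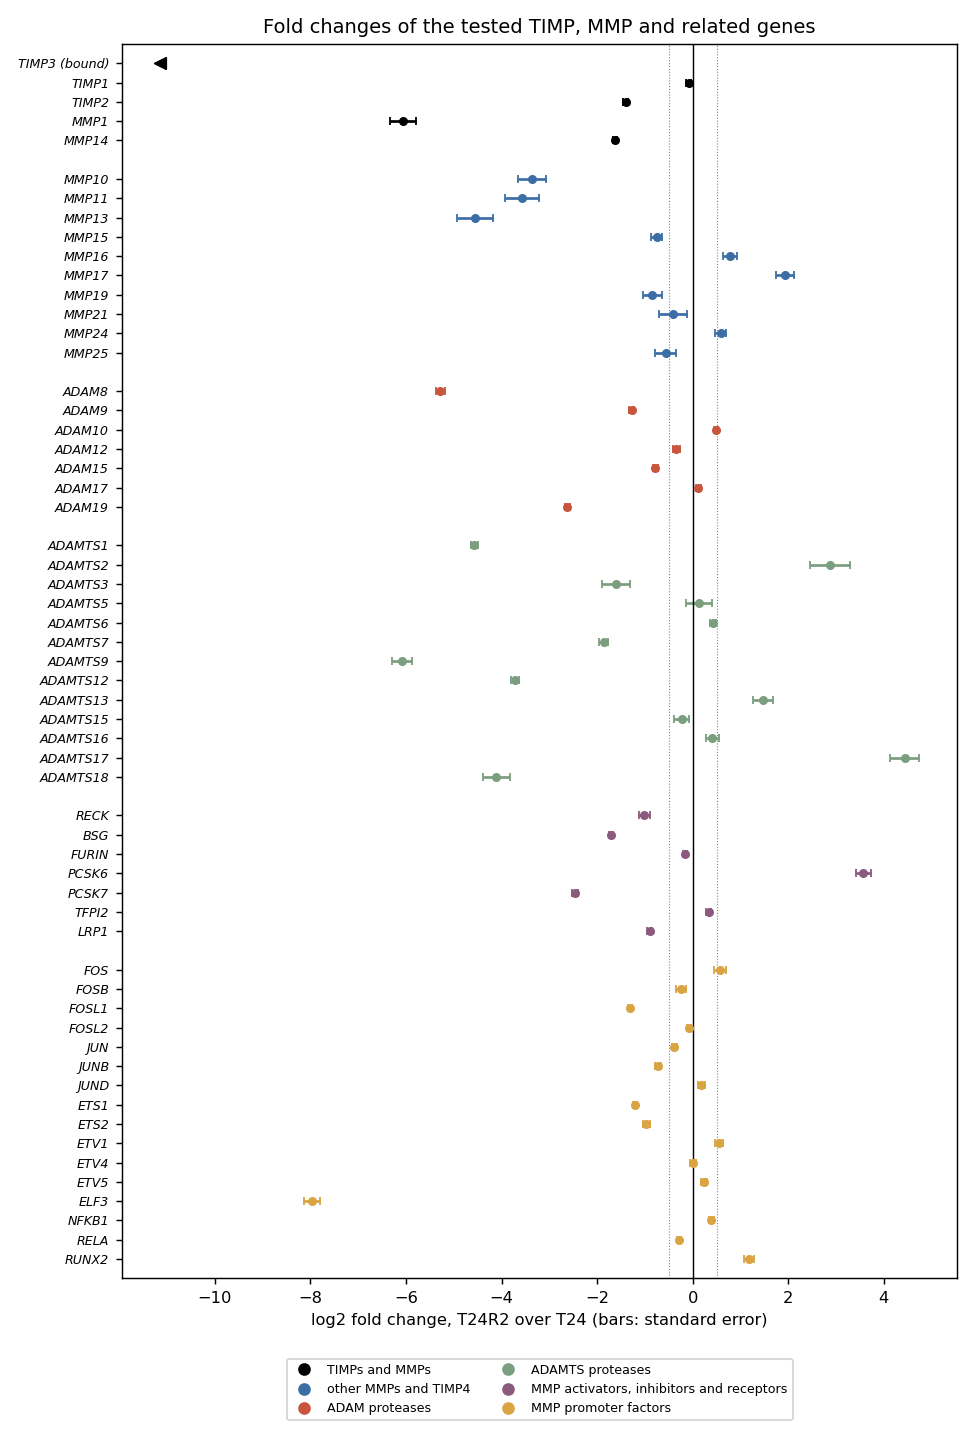
Log2 fold change of T24R2 over T24 for the tested TIMP and MMP genes and the related lists, with bars of 1 standard error and dotted lines at 0.5 on either side of 0. The triangle for TIMP3 is the bound from a floor of 3 counts per library, and genes lie on both sides of 0 in each of the 5 related lists.

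The genes whose profile over the 10 libraries was most like that of a TIMP were found by the Euclidean distance of log2(CPM + 0.25). For TIMP1 they were MAP2K2 and EFTUD2 (distances 0.195 and 0.238), and for TIMP2 IGF2BP2 and EIF3M (0.167 and 0.231). For TIMP3, KRT19, a keratin that went from 267.0 CPM in T24 to 0.08872 CPM in T24R2, was among the 2 nearest (distance 3.25).

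The lines were checked against cell type markers. Of 15 urothelial markers, 8 were tested and all 8 fell. KRT7, KRT8 and KRT18 stayed high, at 2242, 1541 and 1112 CPM in T24 and 1370, 1009 and 690.9 CPM in T24R2, and GATA3 went from 22.08 to 0.2138 CPM, while KRT20 was at 0 in every library. The summed urothelial level was 5006 to 5740 CPM in T24 and 3029 to 3233 CPM in T24R2. Of 9 markers of fibroblasts, cells that make many MMPs and TIMPs, 2 were tested and both fell (COL1A1 from 6.447 to 1.028 CPM and PDGFRB from 3.426 CPM to 0). PDGFRA went the other way, with 0 counts in every T24 library and 1 to 7 in T24R2, too few for the test. The summed fibroblast level was 9.829 to 11.94 CPM in T24 and 0.9536 to 2.294 CPM in T24R2, and the defining genes COL1A2, COL3A1, DCN and LUM had at most 3 counts in any library. Of the 5 endothelial markers, 3 were tested and all fell, from a summed level of 301.2 to 355.6 CPM to one of 2.11 to 2.783 CPM. These were CDH5 (239.0 to 0.5594 CPM), TIE1 (77.14 to 0.5372 CPM) and PECAM1 (5.36 to 1.175 CPM), while VWF and TEK were at 0.4493 and 0.08529 CPM in T24. Of the 7 leukocyte markers none was tested, with summed levels of 1.371 to 2.474 and 0.4455 to 2.975 CPM. GATA3, KRT19 and the fibroblast and endothelial genes tested passed the filter on low counts through their T24 counts. Nothing is read from the shared direction of the markers, and 26.5% of all genes tested were called lower. The part of these marker changes in the TIMP and MMP results was not tested.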

How the data were processed

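The data were RNA-seq libraries of T24 and T24R2 cells, 5 of each. The authors aligned reads to hg38 with STAR 2.7.0, removed duplicates with SAMtools 1.10 and deposited raw fragment counts per gene of GENCODE release 39, made with featureCounts 2.0.1 at strand option 1. Removal of duplicates may lower the counts of abundant transcripts. Of 61533 genes, 61415 had a symbol in the name table.

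Here the lines were compared in R 4.3.3 with edgeR 4.0.16 (filterByExpr, 16181 genes, TMM scaling, glmQLFit, glmQLFTest, Benjamini-Hochberg adjustment over all genes tested). The thresholds of the study were used for calls (adjusted p under 0.05, log2 fold change beyond 0.5 in either direction). CPM and FPKM used TMM-scaled library sizes, and FPKM the exon lengths of the tables. The floor for bounds was 3 counts per library, which covers counting error only. Counts of same-line libraries differed beyond Poisson error in each of 20 pairs (chi-square divided by its degrees of freedom, 1.993 to 6.512). The libraries are thus not copies of one another, but this does not show whether they are separate cultures. Total counts were 9257843 to 10840954. What edgeR names the biological coefficient of variation was 6.61%, a spread that may be technical.

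The 9 genes and the gene lists were chosen with earlier results of these data known. From each list, the text names the called genes with the 3 largest absolute log2 fold changes at a mean of at least 1 CPM. It also names the genes of the chromosome 11 cluster, the genes that hold or lie within TIMP genes, the tested genes that flank TIMP3, MMP14 and the cluster most closely, and the 2 nearest profiles of each TIMP, of which 1 is not reported here. Genes of the lists named beyond this rule (MMP15, MMP16, MMP17, MMP19, MMP21, MMP24, MMP25, ADAM10, ADAM17, ADAM21, ADAMTS4, ADAMTS5, RECK, TFPI2, LRP1, FURIN, RUNX2, JUN, JUNB, FOS, RELA and NFKB1) were named after their values were seen, as were the marker genes named. Alternatives were scaling by library size alone or by upper quartiles, DESeq2 1.42.0 with and without shrinkage, limma-voom (limma 3.58.1), other count filters and thresholds, a block for the replicate number, levels not divided by length and leaving out each library. Steps were tested on simulated counts with few changed genes, balanced in direction. That test does not bear on the choice of scaling in these data. Tables and plots used Python 3.11.15 with pandas 2.3.3 and matplotlib 3.10.9.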

Additional observations from a re-analysis of the deposited data

Results flagged for a closer look

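The level of TIMP2 in T24R2 replicate 3, 100.8 CPM, lay apart from the other 4 T24R2 libraries, which were at 87.23 to 90.56 CPM. Its gap to the nearest library was 0.754 of the range of the group by Dixon's test. The value remained below every T24 library. Of 34 groups of 5 libraries examined, 1 stood out in this way, and chance alone would give about 1.7, or 1 in 20.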

How the results depend on the processing

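TIMP2, TIMP3 and MMP14 were called lower under all 18 alternatives, and MMP1 under the 17 in which it could be tested. Of the 220 values compared, 203 kept their direction and size class. TIMP1 turned from a log2 fold change of -0.08 to 0.078 without scaling beyond library size, which also gave -1.24 for TIMP2 and -1.47 for MMP14. Upper-quartile scaling gave -1.55 for MMP14, and DESeq2 with normal shrinkage gave -5.32 for MMP1. With no count filter, 6 of the 9 genes were called, MMP2 and MMP9 being added, and TIMP4 was called lower (-3.58). A mean of at least 100 counts left 4991 called genes (2350 higher, 2641 lower), 2 other MMPs and 4 ADAMTS genes, since fewer genes are tested. A minimum log2 fold change of 1 left 4211 called genes (1918 higher, 2293 lower), 4 other MMPs and 4 promoter factors, and no minimum gave 7 ADAM genes and 14 promoter factors. The TIMP share was 64.68% in T24 and 57.25% in T24R2 without division by length, and 67.36% and 70.18% with the whole family.

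Leaving out each library in turn gave 8398 to 8466 called genes, and log2 fold changes of -0.11 to -0.06 for TIMP1, -1.44 to -1.38 for TIMP2, -6.69 to -5.77 for MMP1 and -1.65 to -1.60 for MMP14. ADAM calls ranged from 4 to 6, with 4 lower in each fit and 0 to 2 higher. The correlations of same-numbered libraries were 0.00201 to 0.0596, which shows no pairing by replicate number but cannot exclude one. With a replicate block, 8240 genes and 4 of the 9 genes were called, TIMP1 was at -0.08, and no call in the lists moved by over 1.5 times. Genes of a few counts (MMP2, MMP3, MMP7, MMP9 and TIMP4) were tested in the fit without a count filter alone.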
